A study of Mus musculus with 96 samples.

Results

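Haemoglobin carries oxygen in red blood cells, and its mRNA was followed here in 3 tissues as a possible marker of the blood they held. The amount of blood in each sample was not measured, so their levels are not read as amounts of blood. The proportions of the genes to each other differed between tissues, as given below. The genes are Hba-a1 and Hba-a2, which encode the alpha chain, Hbb-bs and Hbb-bt, which encode the beta chain, and Alas2, the red cell enzyme for the first and rate-limiting step of haem synthesis. They are 5 of the 56748 genes counted. They were chosen by name, selected on the measured values of the male liver libraries, where red cell genes were known to differ between the diets. Their values in male liver are therefore a description, and tests are given for the other tissues and groups.

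Red cell precursors of the bone marrow fill with globin mRNA and haem before they lose their nucleus. Reticulocytes, the young red cells released into the blood, still hold this mRNA, and mature red cells lose it. In the adult, the liver is a place where macrophages clear old red cells, and hepatocytes make haem for their own enzymes through Alas1, the form of the enzyme found outside red cells.

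Poly-A RNA of the liver, of skeletal muscle and of the cerebral cortex was sequenced from mice fed ad libitum (AL) or kept on intermittent fasting (IF). The male groups were C57BL/6 mice 1 to 16, with 8 mice per diet, which entered their regimen at 6 weeks of age and kept it for 4 months, the IF mice without food for 16 h each day from 16:00 to 8:00. The female groups were mice 25 to 40, also 8 per diet, for which the labels give sex and diet but not strain, age or regimen, so that sex and cohort cannot be told apart. According to the methods, the male mice were killed over a span of morning hours that began before 8:00 and ran past it. The methods describe this as the end of the fasting window of the IF group. The mice were perfused with chilled saline before the tissues were frozen. Perfusion washes out blood, and how complete it was in each mouse was not measured.

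Of 96 libraries, 95 were used, since library 1 of the male AL cortex was left out from the start. A library held between 26097314 and 49838004 counts, so that 1 count was worth between 0.0201 and 0.0383 CPM, a gene's counts per 1000000 counts of its library. Summed markers of hepatocytes, muscle fibres and neurons were higher in all 32 libraries of liver, muscle and cortex, respectively, than in any library of another tissue, with the omitted library included in this check. All 5 genes passed the filter on low counts in each of the 6 comparisons of the diets.

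Together the 5 genes took a median of 0.0622% of the counts in liver (0.0115 to 0.688%), 0.0296% in muscle (0.00579 to 0.0869%) and 0.0260% in cortex (0.00794 to 0.0510%). Compared per length, as CPM per kilobase of the gene, Hbb-bs was the most abundant member in male AL muscle with a median of 214 and Hba-a1 followed with 176, while Hba-a2 had 27.7, Hbb-bt 22.3 and Alas2 1.77. In male AL liver the order was another: Hba-a1 had a median of 385 CPM per kilobase, Hbb-bs 155, Hba-a2 72.7, Alas2 19.9 and Hbb-bt 18.9. Within each pair of copies the split of the counts is uncertain, because the coding sequences are nearly identical and how reads matching both copies were counted is not stated.

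In male liver, described here because its values chose the genes, the median of each haemoglobin gene was higher in IF than in AL mice, with a wide spread between mice, and that of Alas2 was not. The 4 haemoglobin genes summed to between 329 and 908 CPM in AL mice (median 517) and between 634 and 6774 CPM in IF mice (median 2029.7). The mean was 531 ± 193 CPM in AL and 2520.5 ± 2143 CPM in IF mice (SD, n = 8 each), a ratio of 4.74. Mice 9, 10, 16, 14 and 13 held the highest sums of the IF group, and mice 11, 12 and 15 lay within the AL range. In bulk tissue, more red cells and more globin mRNA per red cell cannot be told apart.

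Hbb-bs, the major beta chain gene here, ranged from 53.5 to 165 CPM in male AL liver (median 119) and from 269 to 2979.8 CPM in male IF liver (median 907). All 8 IF libraries lay above the highest AL library, mouse 9 being the highest, and the log2 fold change was 3.17 ± 0.52 (SE). Its minor copy Hbb-bt ranged from 6.46 to 21.5 CPM under AL (median 13.3) and from 20.3 to 227 CPM under IF (median 84.0). For Hbb-bt, 7 of 8 IF libraries lay above every AL library, mouse 11 being the exception, with a log2 fold change of 2.67 ± 0.52. The alpha chain gene Hba-a1 ranged from 229 to 619 CPM in AL (median 312) and from 299 to 3238 CPM in IF libraries (median 879.6). The Hba-a1 groups overlapped, with 5 of 8 IF libraries above the highest AL library, that of mouse 2, and a log2 fold change of 1.70 ± 0.47.

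The minor alpha copy Hba-a2 was spread wider among AL livers, from 12.5 to 147 CPM (median 48.5), and lay between 46.3 and 329.7 CPM under IF (median 159). The lowest AL value was that of mouse 5 and the highest that of mouse 6, although these mice were close in Hba-a1. For Hba-a2 the log2 fold change was 1.27 ± 0.55, and the groups overlapped. Alas2 behaved in another way and ranged from 30.6 to 55.8 CPM under AL (median 47.9) and from 33.3 to 105 CPM under IF (median 43.2). Its log2 fold change was 0.18 ± 0.19, and the IF libraries above the AL range were those of mice 9, 10 and 16. By edgeR's quasi-likelihood test over all genes, 3 of the 5 genes were called (Hba-a1, Hbb-bs and Hbb-bt), all higher under IF, where 44.6% of all genes tested were called and 23.5% were called as higher. DESeq2 called 4, with Hba-a2 in addition. The groups did not overlap for 1 of the 5 genes, Hbb-bs, as was the case, with all IF above all AL libraries, for 8.97% of all genes. Since the members were picked with this contrast known, nothing is read from these counts. The median log2 fold change of the 5 genes was 1.70, and that of all genes tested was 0.06.

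**Figure D1:**
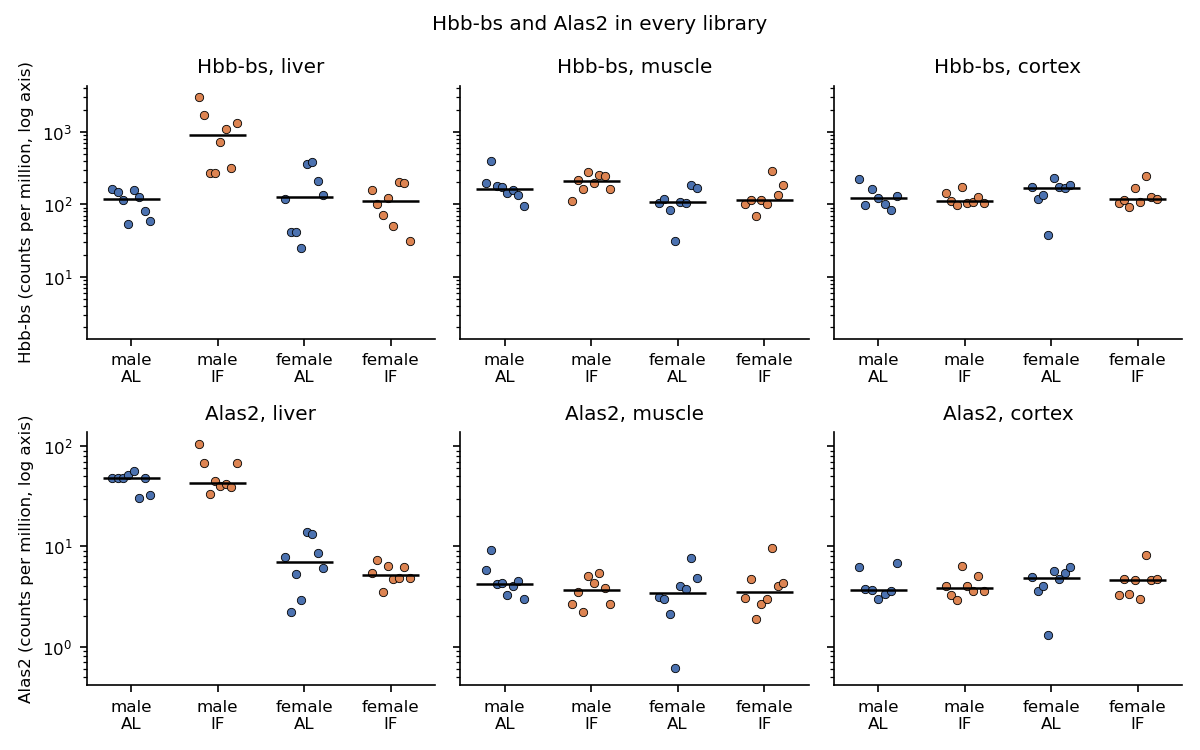
CPM of Hbb-bs (upper panels) and Alas2 (lower panels) in each library of liver, muscle and cortex, on log axes, with 1 point per mouse and a bar at the group median. In male liver the 8 IF libraries lie above the 8 AL libraries for Hbb-bs but not for Alas2, and in the other panels the diets overlap.

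Other red cell genes and markers of other cells were also called in male liver, where 44.6% of all genes were called, so that their counts are read against that share. Of 31 listed red cell genes, 30 are in the table and 18 were tested, of which 7 were higher and 2 lower under IF. Pooled over both directions this share was near that of all genes, of which 23.5% were called as higher. The median log2 fold change was 0.25 against 0.06 for all genes, and these counts are a description. The genes named next were all among the higher ones. Slc4a1, the anion exchanger of the red cell membrane, had a log2 fold change of 1.65 ± 0.55 (1.32 and no longer called without mouse 10), the membrane skeleton gene Sptb 1.48 ± 0.33, and Bpgm, which makes the compound that lowers the oxygen affinity of haemoglobin, 1.09 ± 0.24. Mean levels were low for Slc4a1 (0.546 CPM under AL, 1.85 under IF) and Sptb (0.892 and 2.63 CPM). The most abundant gene of this list was Prdx2. The list summed to between 338 and 461 CPM under AL and between 397 and 534 CPM under IF. Klf1, a transcription factor of red cell precursors, was lower, with a log2 fold change of -0.90 ± 0.21, and of the other tested genes of erythroid progenitors 2 were higher, or 1 with relative log expression (RLE) size factors. Of this list 7 of 10 genes were tested.

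Platelet genes were higher as well: all 7 tested of 12 listed were called as higher, where 23.5% of all genes were. The low-level glycoprotein Gp5 (mean 0.457 CPM under AL, 2.68 under IF) led them, with a log2 fold change of 2.44 ± 0.43. Their summed level was between 17.8 and 26.5 CPM in AL and between 33.4 and 71.9 CPM in IF livers, with no overlap, Itga2b was the most abundant of them, and Gp1bb had no count in any male liver library. Of 12 endothelial genes, 7 were called higher, among them Vwf (1.42 ± 0.29) and the growth factor receptor Kdr (1.07 ± 0.12) on the log2 scale. The endothelial sum was between 257 and 357 CPM under AL and between 368 and 710.2 CPM under IF, with Eng as its most abundant gene. Of 8 B cell genes none was called by edgeR, with 1 at an unadjusted p under 0.05 and 1 called by DESeq2. For T and NK cells 3 genes were higher and 1 was lower of 8 tested, for monocytes and macrophages 2 of 12 were higher (1 with RLE size factors), and for neutrophils 1 of 5 was lower. The part that these other cells have in the haemoglobin result was not tested.

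Genes that make and clear haem were also called in male liver, beside 44.6% of all genes. Among the 11 genes of haem synthesis 4 were higher and 4 lower under IF, with a median log2 fold change of -0.12 against 0.06 for all genes, led by Alas1 with a log2 fold change of 2.12 ± 0.42. Alas1 ranged from 52.5 to 354 CPM under AL and from 611 to 1580 CPM under IF. Urod (0.84 ± 0.11) and Fech (0.72 ± 0.09), later enzymes of the pathway, were higher and Ppox (-0.79 ± 0.11) was lower on the log2 scale. Of 10 genes for the clearance of haem and haemoglobin, 6 were higher and 0 lower, with a median of 0.42 on the log2 scale, among them the haem oxygenases Hmox2 (1.44 ± 0.18) and Hmox1 (1.40 ± 0.19).

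In female liver no difference between the diets was detected for any of the 5 genes. Hbb-bs ranged from 24.9 to 381 CPM under AL (median 127) and from 31.1 to 203 CPM under IF (median 112). Hba-a1 ranged from 70.0 to 605 CPM under AL (median 325) and from 179 to 677 CPM under IF (median 322). The diets overlapped throughout for both genes, with mice 29, 30 and 31 high and mice 26, 27 and 28 low among the AL mice, and mouse 38 the highest of the IF mice. Hba-a2 lay between 13.6 and 124 CPM and Hbb-bt between 2.70 and 39.9 CPM over both diets. Alas2 lay between 2.23 and 13.8 CPM under AL (median 7.0) and between 3.52 and 7.36 CPM under IF (median 5.13), and 7 of 8 IF mice were below the AL median.

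The log2 fold change in female liver was -0.45 for Hbb-bs (95% confidence interval -1.66 to 0.77, adjusted p = 0.931 by edgeR) and 0.09 for Hba-a1 (-0.77 to 0.94, adjusted p = 0.983). For Alas2 it was -0.44 (-1.05 to 0.18, adjusted p = 0.872 by edgeR). These intervals are wide, as the livers of a single female group spread widely in each of these genes. By edgeR 0 of the 5 genes were called, where 0% of all genes were called, and 0 had an unadjusted p under 0.05 or were called by DESeq2. Of all 15938 genes tested in female liver, 919 had an unadjusted p under 0.05, and DESeq2 called 6. The groups overlapped for all 5 genes, and failed to overlap for 0.0188% of all genes. The median log2 fold change was -0.36 for the 5 genes and -0.01 for all genes. Whether the response of the liver differed between the sexes was not tested, since the male contrast was known.

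Alas2 set the male livers apart from the female livers under both diets. Under AL all 8 male livers (30.6 to 55.8 CPM) were above all 8 female livers (2.23 to 13.8 CPM), and the other 4 genes overlapped, where 1.77% of all genes lay higher in every male library. Under IF the male livers were above the female livers in Alas2 (33.3 to 105 against 3.52 to 7.36 CPM) and in Hbb-bs (269 to 2979.8 against 31.1 to 203 CPM), where 5.08% of all genes did so. In muscle and cortex the ranges of Alas2 overlapped between the sexes. Relative to Hbb-bs, per kilobase, Alas2 had a median of 0.124 in male AL liver and 0.0169 in male IF liver, 0.0159 and 0.0162 in female AL and IF liver, and between 0.00546 and 0.0112 in the groups of muscle and cortex. The male AL livers, the lowest at 0.0788, were above every other library in this ratio.

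Alas2 lies on chromosome X (GRCm39 chrX:149330371-149353634, forward strand) inside the region of Apex2, a DNA repair gene on the other strand that shares 23264 bases with it. Apex2 had a median of 12.4 CPM in male AL liver (11.4 to 18.2), 11.2 in male IF liver (4.92 to 13.5), 9.02 in female AL liver (5.90 to 10.4) and 8.02 in female IF liver (5.57 to 18.8). Under AL every male liver was thus above every female liver in Apex2, as in Alas2, with a smaller gap between the medians, and under IF the Apex2 ranges overlapped. The strand setting used in counting is not stated, so reads of these genes cannot be told apart here. The other 4 genes overlap no annotated gene.

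In male muscle the ranges of the members overlapped between the diets, and none was called with all 16 libraries. Hbb-bs ranged from 95.4 to 398 CPM under AL (median 165) and from 112 to 279 CPM under IF (median 209). Hba-a1 ranged from 69.6 to 362 CPM under AL (median 143) and from 104 to 238 CPM under IF (median 174). Mouse 2 was the highest AL mouse for all 5 genes and lay above every IF mouse. Hba-a2 ranged from 13.2 to 56.9 CPM under AL (median 18.5) and from 19.7 to 37.7 CPM under IF (median 31.8), and all 8 IF mice were above the AL median. Alas2 ranged from 2.96 to 9.13 CPM under AL (median 4.25) and from 2.22 to 5.37 CPM under IF (median 3.68).

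The log2 fold change in male muscle was 0.07 for Hbb-bs (95% confidence interval -0.49 to 0.63, adjusted p = 0.892 by edgeR) and 0.25 for Hba-a2 (-0.37 to 0.87, adjusted p = 0.587 by edgeR). Without mouse 2 that of Hba-a2 was 0.57 and passed the threshold (adjusted p = 0.0479 by edgeR). Over all 16 fits without 1 library the adjusted p of Hba-a2 by the same test ranged from 0.0479 to 0.753, and over 8 other settings from 0.0515 to 0.995. For Alas2 the log2 fold change was -0.44 (-0.91 to 0.03, adjusted p = 0.165 by edgeR). Of the 5 genes, 0 were called by edgeR, where 23.1% of all genes were called, 0 had an unadjusted p under 0.05 and 0 were called by DESeq2. None of the 5 was without overlap between the diets, against 4.17% of all genes. The median log2 fold change was 0.03 for the 5 genes and 0.01 for all genes. Among 18 tested red cell genes 1 was higher and 6 were lower, led by Car1 (0.90 ± 0.26) and Ank1 (-0.64 ± 0.06), of which Ank1 is also made by muscle fibres. Myoglobin, the oxygen store of the muscle fibre and a relative of the haemoglobin chains, fell by 0.90 on the log2 scale (SE 0.25, adjusted p = 0.0166 by edgeR), from 1684 ± 435 to 959.5 ± 358 CPM (SD, n = 8 each).

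In female muscle the diets overlapped as well. Hbb-bs ranged from 31.2 to 186 CPM under AL (median 106) and from 68.9 to 292 CPM under IF (median 115). Alas2 ranged from 0.607 to 7.71 CPM under AL (median 3.45) and from 1.87 to 9.68 CPM under IF (median 3.53). Mouse 28 had the lowest value of the AL group and mouse 38 the highest of the IF group for each of the 5 genes, and the medians of the diets were close. The log2 fold change of Hbb-bs was 0.36 (95% confidence interval -0.38 to 1.09, adjusted p = 0.747 by edgeR). Those of the other members lay between -0.29 for Hba-a2 and 0.33 for Hbb-bt. By edgeR 0 of 5 were called, where 0.00653% of all genes were called, and 0 had an unadjusted p under 0.05 or were called by DESeq2. All 5 overlapped, while 0.0915% of all genes did not. The median log2 fold change was 0.24 for the 5 genes and -0.02 for all genes.

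In male cortex the ranges of the members overlapped between the diets, and none was called. Hbb-bs ranged from 84.3 to 227 CPM in 7 AL mice (median 122) and from 98.1 to 171 CPM in 8 IF mice (median 109.5). Hba-a1 ranged from 78.0 to 201 CPM under AL (median 117) and from 98.0 to 174 CPM under IF (median 109.6). Mouse 2 was again the highest AL mouse for the 4 haemoglobin genes, mouse 8 was for Alas2, and mouse 12 was the highest IF mouse for all 5. Alas2 ranged from 3.0 to 6.76 CPM under AL (median 3.67) and from 2.93 to 6.42 CPM under IF (median 3.82). The log2 fold change was -0.12 for Hbb-bs (95% confidence interval -0.54 to 0.31, adjusted p = 0.775 by edgeR) and -0.07 for Alas2 (-0.48 to 0.35, adjusted p = 0.882). Hbb-bt alone of the 5 had a log2 fold change above 0. By medians, Hba-a2 (10.2 CPM under AL, 11.6 under IF) and Alas2 were also higher under IF. For Hbb-bt the median was 8.67 CPM under AL (7.02 to 23.9) and 12.2 CPM under IF (9.16 to 13.8). All 8 IF mice were above the AL median of Hbb-bt. Its log2 fold change was 0.09 (adjusted p = 0.850 by edgeR) and, without mouse 2, 0.41 (adjusted p = 0.0704 by edgeR), and over 9 other settings the adjusted p lay between 0.122 and 0.923.

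By edgeR 0 of the 5 genes were called in male cortex, where 7.21% of all genes were called, and 0 had an unadjusted p under 0.05 or were called by DESeq2. With library 1 of the AL group kept in, 295 in place of 1332 genes were called by edgeR, and 0 of the 5 members. All 5 overlapped between the diets, while 1.01% of all genes did not. The median log2 fold change was -0.07 for the 5 genes and -0.00 for all genes. Mkrn1, with a log2 fold change of 0.20 ± 0.06, was the red cell gene called by edgeR of 18 tested (2 by DESeq2 and 2 with RLE size factors), and Ppox (0.22 ± 0.07) that of haem synthesis of 11 tested, and both calls were lost in most fits without 1 library.

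In female cortex the medians were lower under IF and the ranges overlapped. Hbb-bs ranged from 38.2 to 233 CPM under AL (median 170.4) and from 91.3 to 246 CPM under IF (median 117). Hba-a1 ranged from 32.1 to 192 CPM under AL (median 151) and from 73.8 to 201 CPM under IF (median 106). The lowest library was that of AL mouse 28 and the highest that of IF mouse 38 for both genes, and 7 of 8 IF mice were below the AL median of Hbb-bs. Alas2 ranged from 1.30 to 6.22 CPM under AL (median 4.84) and from 2.96 to 8.25 CPM under IF (median 4.63). The log2 fold change was -0.19 for Hbb-bs (95% confidence interval -0.83 to 0.45, adjusted p = 0.825 by edgeR) and 0.02 for Alas2 (-0.52 to 0.56, adjusted p = 0.984).

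By edgeR 0 of the 5 genes were called in female cortex, where 0.0109% of all genes were called, and 0 had an unadjusted p under 0.05 or were called by DESeq2. All 5 overlapped, while 0.0435% of all genes did not. The median log2 fold change was -0.18 for the 5 genes and 0.00 for all genes. Summed over the 4 haemoglobin genes, the ratio of the IF mean to the AL mean was 0.939 in female liver, 1.10 in male muscle, 1.16 in female muscle, 0.926 in male cortex and 0.881 in female cortex, beside the 4.74 of male liver.

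The difference of the diet effect between the sexes was tested in muscle and cortex. In muscle 0 of the 5 genes were called by edgeR, where 14.2% of all genes were called, and the lowest adjusted p was 0.366 for Alas2, whose log2 fold change was -0.44 in male and 0.24 in female mice. For Hbb-bs the male effect was lower than the female effect by 0.30 on the log2 scale, written as -0.30 (95% confidence interval -1.20 to 0.59). In cortex 0 of the 5 genes were called by edgeR, where 2.03% of all genes were called, and the difference was 0.07 for Hbb-bs (-0.71 to 0.84). No member had an unadjusted p under 0.05 in either tissue.

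Beside their levels, the proportion of alpha to beta chain mRNA differed between tissues. The ratio of Hba-a1 to Hbb-bs, each per kilobase, had medians between 0.677 and 0.812 in the 4 groups of muscle and between 0.820 and 0.937 in those of cortex. In female liver it was 2.44 under AL (1.32 to 3.63) and 2.72 under IF (2.19 to 5.44), above every library of muscle and cortex. In male liver it was 3.04 under AL (1.90 to 4.06) and 1.04 under IF (0.904 to 1.19). The male IF livers were thus near 1, overlapping the highest libraries of muscle and cortex, and lay apart from the male AL livers in this ratio, for which no test is given. Hba-a1 to Hba-a2, per kilobase, ranged from 2.06 to 25.7 in liver, from 4.06 to 9.52 in muscle and from 5.81 to 10.8 in cortex. This split between the alpha copies was widest in liver, where mouse 5 of the male AL and mouse 33 of the female IF group had the highest ratios of their groups.

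**Figure D2:**
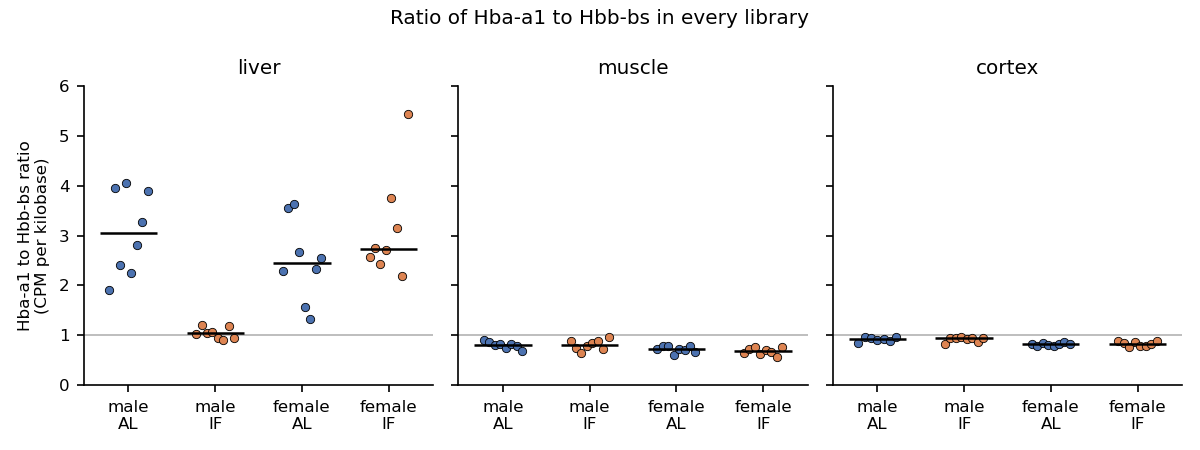
Ratio of Hba-a1 to Hbb-bs, both as CPM per kilobase of gene, in each library of liver, muscle and cortex, with 1 point per mouse, a bar at the group median and a line at a ratio of 1. The male IF livers lie between 0.904 and 1.19, below the other 3 groups of liver.

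Within the groups the members rose and fell together from library to library. After the mean of each sex and diet group was subtracted from the log2 CPM, each gene was correlated with the mean of the other 4 over the 32 libraries of a tissue (31 in cortex). Pearson's r was between 0.93 and 0.99 in muscle for Hba-a1, Hbb-bs, Hbb-bt and Alas2 and 0.91 for Hba-a2. In liver it was 0.64 for Hba-a2 and 0.74 for Alas2, the lowest of the 15 values. The SD within groups was 0.95 to 1.16 on the log2 scale for the 4 haemoglobin genes in liver and 0.54 to 0.72 in muscle and cortex. These values are descriptions, since the genes share libraries and a denominator, and copies can share reads.

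Alas2 and Hbb-bs, which lie on chromosomes X and 7, were compared within each group as log2 CPM over 8 libraries (7 in male AL cortex), with two-sided exact permutation tests in the 10 groups other than male liver. Pearson's r was positive in all 10, and its p adjusted over them was under 0.05 in 8, while that of Spearman's rho was in 5. In female AL cortex r was 0.98 (n = 8, exact permutation p = 0.00109, adjusted p = 0.00329) and rho was 0.88 (p = 0.00724, adjusted p = 0.0241), and without the 2 libraries farthest from the median of Hbb-bs r was 0.73. In male liver, given as a description, r was 0.86 and rho 0.86 in the 8 IF mice, with r at 0.69 without those 2 libraries, and r was 0.23 and rho 0.12 in the 8 AL mice, with r at 0.18.

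The relation was not detected in 2 of the 10 groups tested. In female IF liver r was 0.38 (n = 8, exact permutation p = 0.352, adjusted p = 0.352), rho was 0.29 (p = 0.501, adjusted p = 0.501) and r without 2 libraries was 0.32. In male AL cortex r was 0.57 (n = 7, exact permutation p = 0.182, adjusted p = 0.202), rho was 0.43 (p = 0.354, adjusted p = 0.393) and r without 2 libraries was 0.22. Both levels share the library and its total count, which can add to such a relation.

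**Figure D3:**
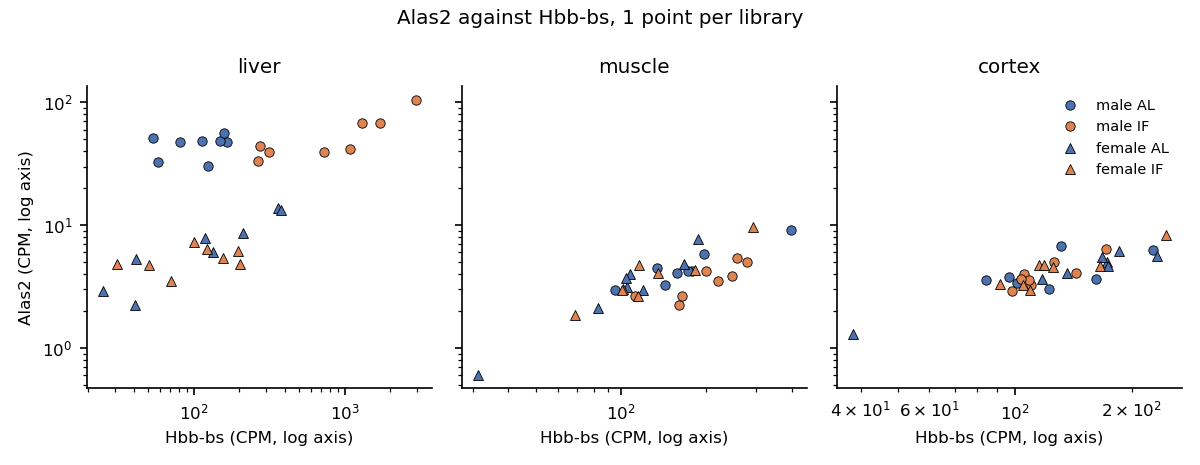
Alas2 against Hbb-bs, both in CPM on log axes, with 1 point per library of liver, muscle and cortex, coloured by diet and shaped by sex. Both groups of male liver lie above every library of muscle and cortex in Alas2, with 30.6 to 55.8 CPM under AL and 33.3 to 105 CPM under IF. The male AL livers have the highest Alas2 relative to Hbb-bs.

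Whether a mouse with more of these mRNAs in 1 tissue had more in another was asked next, taking mouse numbers to name the same animal in each tissue, which the labels do not state. Hbb-bs and Alas2 were compared between each pair of tissues within each group, 24 relations in all, with two-sided exact permutation tests for the 16 without male liver. Pearson's r was above 0 in all 16, and its p adjusted over them was under 0.05 in 2, or in 1 when adjusted over all 24, while that of Spearman's rho was in 0, with 5 Pearson tests at an unadjusted p under 0.05. The relation called in both ways was Hbb-bs in liver and cortex of female AL mice, with r = 0.79 (n = 8, exact permutation p = 0.00174, adjusted p = 0.0278, or 0.0417 over 24), rho = 0.83 (p = 0.0154, adjusted p = 0.116) and r = 0.76 without the 2 libraries farthest from the liver median. Of the 8 relations with male liver, described without a test, 3 had r above 0, and Hbb-bs of liver and muscle in male IF mice had r = -0.53, rho = -0.33 and r = -0.60 without 2 libraries. Mouse 9, the highest in liver, was the lowest of its group in muscle.

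For Hbb-bs in muscle and cortex of female IF mice r was 0.82 (n = 8, exact permutation p = 0.0150, adjusted p = 0.0600) and rho was 0.81 (p = 0.0218, adjusted p = 0.116). Without the 2 libraries farthest from the muscle median r was 0.14, so that this relation rests on those libraries, of which mouse 38 was the highest in both tissues. Alas2 in muscle and cortex of female AL mice had r = 0.93 (n = 8, exact permutation p = 0.00456, adjusted p = 0.0365, or 0.0548 over 24), rho = 0.88 (p = 0.00724, adjusted p = 0.116) and r = 0.79 without 2 libraries. Mouse 28 was the lowest of that group in both tissues.

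Ordered by median CPM over the 12 groups, Hbb-bs was highest in male IF liver (907), followed by male IF muscle (209), female AL cortex (170.4) and male AL muscle (165), and lowest in female AL muscle (106). Hba-a1 was highest in male IF liver (879.6), followed by the other groups of liver (325 to 312) and male IF muscle (174), and was lowest in female IF muscle (76.9). For the 4 haemoglobin genes the ranges of each pair of neighbours in these orders overlapped. Alas2 was highest in male AL liver (47.9) and male IF liver (43.2), whose ranges overlapped, and then fell to female AL liver (7.0), with no overlap at that step. The remaining groups lay between 3.45 and 5.13 CPM of Alas2, each overlapping its neighbour.

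The genes whose log2 CPM followed the mean of the 5 members most closely among libraries, after group means were subtracted, included red cell genes in liver. Over 32 liver libraries and 17653 genes, the 5 closest included Bpgm (Pearson's r 0.79), Calcrl (0.76) and Slc4a1 (0.69), of which Bpgm and Slc4a1 are on the list of red cell genes. In muscle they were Iqcg (0.81), S100a9 (0.65), Nlrp10 (0.64), Notch4 (0.62) and Wrap53 (0.62), with none on that list. In cortex they were Gm43305 (0.71), Atp6v0d1 (0.70), Megf11 (0.69), Tmem222 (0.69) and Nubp2 (0.69), and by Spearman's rho 2 of these 5 were among the 5 highest. By the mean r of the 3 tissues Tent5c (0.50) and Mrpl12 (0.50) were among the highest of 14103 genes. These are the highest of very many correlations, and no test is given for them.

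The near-identity of the copies bears on the separate values of the alpha pair and of the beta pair, so the places where they differ are shown. In the GRCm39 annotation Hba-a1 lies at chr11:32233511-32234465 and Hba-a2 at chr11:32246489-32247298 on the forward strand. Hbb-bs lies at chr7:103475741-103477303 and Hbb-bt at chr7:103461731-103463203 on the reverse strand. The coding sequences of Hba-a1 and Hba-a2, 426 bases each, differ by 1 base (C381T, counted from the A of the start codon) and share a stretch of 380 identical bases. Those of Hbb-bs and Hbb-bt, 441 bases each, differ by 1 base (C417T), with 416 identical bases in a row. Bases 371 to 391 of the alpha pair and 407 to 427 of the beta pair are printed 5′ to 3′ with the differing base in capitals. A read inside the identical stretch cannot tell the copies apart.
Hba-a1: cctctctggaCaaattccttg
Hba-a2: cctctctggaTaaattccttg
Hbb-bs: ctggagtggcCgctgccctgg
Hbb-bt: ctggagtggcTgctgccctgg

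The 250 bases before the start of Hba-a1, Hbb-bs and Alas2 are shown, from RefSeq promoters of GRCm38.p6, which hold all 5 members. Whether these bases bear on the levels given here was not tested. Capitals mark AGATAA or TGATAA, forms of the motif read by GATA factors, and CACCC, the core of the motif read by Klf1, searched on both strands. Hba-a1 is at chr11:32283422-32283671 and Alas2 at chrX:150547167-150547416 on the forward strand, and Hbb-bs is at chr7:103827929-103828178 on the reverse strand. The Hba-a2 promoter is identical to that of Hba-a1 over the 247 bases that align.
Hba-a1: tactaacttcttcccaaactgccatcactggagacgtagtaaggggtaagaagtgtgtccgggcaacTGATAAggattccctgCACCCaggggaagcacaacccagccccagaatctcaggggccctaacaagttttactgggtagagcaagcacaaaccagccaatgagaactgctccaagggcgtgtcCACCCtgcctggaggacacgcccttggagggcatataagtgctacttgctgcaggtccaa
Hbb-bs: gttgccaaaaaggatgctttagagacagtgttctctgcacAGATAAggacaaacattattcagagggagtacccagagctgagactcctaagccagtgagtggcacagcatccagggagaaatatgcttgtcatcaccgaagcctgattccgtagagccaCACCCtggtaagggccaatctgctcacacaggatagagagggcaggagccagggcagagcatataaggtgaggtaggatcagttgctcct
Alas2: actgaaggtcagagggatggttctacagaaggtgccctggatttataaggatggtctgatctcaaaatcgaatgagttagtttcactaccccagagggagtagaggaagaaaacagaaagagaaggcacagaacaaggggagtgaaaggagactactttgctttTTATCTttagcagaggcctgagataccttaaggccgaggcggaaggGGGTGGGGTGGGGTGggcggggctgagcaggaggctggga

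Hba-a1 held 1 TGATAA and 2 CACCC, and Hbb-bs held 1 AGATAA and 1 CACCC. Alas2 held 1 AGATAA and 3 CACCC, and all of these Alas2 matches were on the other strand. Hbb-bt held 3 CACCC and neither GATA form. Of 32851 promoter windows of this length, 9.99% held AGATAA, 7.94% held TGATAA and 52.0% held CACCC on either strand. A match of letters is a description and shows no binding.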

How the data were processed

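Poly-A RNA of liver, muscle and cortex was sequenced as directional libraries made by the dUTP method. The authors aligned paired-end reads to GRCm39 with Hisat2 2.0.5, counted them per gene with featureCounts 1.5.0-p3 and deposited raw counts, and the submitters' processing notes also name CASAVA. The strand setting and the treatment of reads with several matches are not given in the sources used here. Library totals lay between 26097314 and 49838004 counts. One male AL cortex library, CAL1, was omitted by the rule that chose the members. The smallest chi-square per degree of freedom between libraries of a group was 7.70, so none was a duplicate of another in its group.

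CPM used library totals, and levels per kilobase used the gene lengths of the deposited table. Diets were compared within each tissue and sex with edgeR 4.0.16 in R 4.3.3 (TMM, filterByExpr with a minimum count of 10 and a minimum total of 15, robust quasi-likelihood test), with Benjamini-Hochberg adjustment over all genes and a threshold of 0.05. The difference between the sexes was an interaction term. The model was tested on simulated data. Correlations and figures used Python 3.11.15, scipy 1.17.1 and matplotlib 3.10.9. Correlation tests were planned for all groups, and male liver was left out of them after the values were seen, because its values chose the members. The p-values measure the spread between mice, and confidence intervals were at 95%.

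The members, and 15 lists of genes of red cells, other blood, vessel and tissue cells and haem metabolism, were chosen with earlier results of these data known. From each list, tissue and sex, up to 4 called genes with the largest absolute log2 fold change and a mean of at least 0.5 CPM could be named, or the most abundant gene where none was called. The genes most like the members were the 5 per tissue, and the 15 over 3 tissues by mean r, with the highest Pearson r to the members' mean log2 CPM (prior count 2, group means subtracted), of which some are not reported here.

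Alternatives were RLE size factors, DESeq2 1.42.0, no filter beyond a total of 1 count, at least 10 counts in every library, the replicate number as a block, 1 fit over both sexes, leaving out each library, 7 mice per group without AL mouse 2 and IF mouse 10, CAL1 kept in, library totals without the members, TMM-scaled totals, ratios of medians, Spearman's rho and a prior count of 0.5.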

Additional observations from a re-analysis of the deposited data

Results flagged for a closer look

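In 12 of 60 combinations of a member with a tissue, sex and diet, the highest library stood apart from the rest by Dixon's test, where chance flags about 1 in 20 groups. These libraries came from 3 mice, and values of a mouse are not independent of each other. The nearest other library of the group is given in brackets.

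Male AL mouse 2 had 7 of these values. In muscle they were 362 CPM of Hba-a1 (189), 56.9 CPM of Hba-a2 (29.6), 398 CPM of Hbb-bs (197), 42.4 CPM of Hbb-bt (20.2) and 9.13 CPM of Alas2 (5.86). In liver mouse 2 had 619 CPM of Hba-a1 (377), and in cortex it had 23.9 CPM of Hbb-bt (12.2).

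Female IF mouse 38 had 4 of them, which were 9.68 CPM of Alas2 in muscle (4.70) and, in cortex, 8.25 CPM of Alas2 (4.75), 28.5 CPM of Hba-a2 (17.0) and 25.9 CPM of Hbb-bt (16.4). Male IF mouse 12 had 174 CPM of Hba-a1 in cortex (125).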

How the results depend on the processing

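Of 230 values of the members' log2 fold changes under the alternatives, 226 kept their side of the threshold, 3 lost the call and 1 gained it, and 15 values that were never called changed sign. The 3 losses were Hba-a1 (0.88), Hbb-bs (1.35) and Hbb-bt (1.14) in male liver under 1 fit over both sexes, which left 0 members called there. That fit gives both sexes 1 diet effect by its construction, so the members' median log2 fold change in female liver became 0.88 in place of -0.36, Ckm in male muscle became 0.016 in place of -0.19 and Cyp2e1 in female muscle became 1.94 in place of -0.11. The gain was Hba-a2 in male liver, called by DESeq2 (1.24). Male liver is part of these counts and of those below with each library left out. Its calls are a description, since that contrast chose the genes, and nothing is read from their being kept. With each library left out, 473 of 475 values kept their side, and the members called in male muscle ranged from 0 to 1, the 1 being Hba-a2 without AL mouse 2 (0.57). Hba-a2 in male liver was also called without AL mouse 6 (1.62 in place of 1.27). AL and IF mice are different animals that share only a replicate number, and correlations of same-numbered libraries ranged from -0.26 to 0.46. Between 0 and 4 libraries per tissue and sex correlated best with their own number. With the replicate block, the members called were 3 in male liver (median log2 fold change 1.27) and 0 elsewhere. The count of all genes called in male cortex moved from 1332 to 382 with the replicate block, 499 with 7 mice per group, 295 with CAL1 kept in and 2259 by DESeq2, and the cause was not tested. In female mice DESeq2 called 6 in place of 0 genes in liver, 91 in place of 1 in muscle (5 without a filter) and 73 in place of 2 in cortex (0 with the block). The ratio of summed haemoglobin in male liver was 4.74, 4.45 with TMM-scaled totals and 3.92 from medians, and in female cortex 0.881 and, from medians, 0.697. By Spearman's rho 4 of the 5 genes most like the members were again among the first in liver, 3 of 5 in muscle, 2 of 5 in cortex and 5 of 15 over 3 tissues. Of 884 values of listed genes, 74 lost and 11 gained a call and 2 reversed, those of Ckm and Cyp2e1 above. A count was worth at most 0.0383 CPM, far under the lowest Alas2 level of 0.607 CPM.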

Other observations

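Library 1 of the male AL cortex, which was left out of the comparisons except where it is said to be kept in, held 116 CPM of Hba-a1, 10.6 of Hba-a2, 135 of Hbb-bs, 13 of Hbb-bt and 3.99 of Alas2. Its haemoglobin sum of 274 CPM lay inside the range of the 7 other libraries of that group (177 to 474), as did each of the 5 genes.

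In male muscle, where 23.1% of all genes were called, Cyp2e1, an ethanol- and ketone-oxidising enzyme listed as a hepatocyte marker, rose from 5.54 ± 3.88 CPM to 95.4 ± 56.4 CPM (SD, n = 8 each; log2 fold change 4.02, adjusted p = 7.05e-05 by edgeR). All 8 IF libraries were above every AL library. Of 6 hepatocyte genes 2 were tested there, of which edgeR called 1 and DESeq2 called 2 as higher. Of 12 endothelial genes 2 were higher and 1 was lower, a share near that of all genes, with a median log2 fold change of 0.02 against 0.01 for all genes. Of 5 tested genes of erythroid progenitors 1 was higher, the erythropoietin receptor Epor (1.35 on the log2 scale, at a low level), and 1 was lower, the transcription cofactor Lmo2 (-0.36), and the median was -0.13.

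In male cortex, where 7.21% of all genes were called, 3 of 12 endothelial genes were higher and 1 was lower under IF by edgeR, while DESeq2 called 3 higher and 4 lower. Log2 fold changes were above 0 for 4 of the 12, with a median of -0.11 against -0.00 for all genes, and the mean of the endothelial sum was 327 CPM under AL and 299 CPM under IF. Vwf (0.57) and Robo4 (0.54) were above the AL range in all 8 IF libraries, and the tight junction gene Cldn5 had a log2 fold change of -0.43. Of 4 tested B cell genes 1 was called, the immunoglobulin gene Ighm, which rose from 44.5 CPM in 7 AL to 67.6 CPM in 8 IF libraries (log2 fold change 0.61, adjusted p = 0.00274 by edgeR). It was also the 1 of the 4 with a log2 fold change above 0, and their median was -0.19.

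Among all genes tested in female mice by edgeR, an unadjusted p under 0.05 was found for 919 of 15938 in liver, 1644 of 15308 in muscle and 2069 of 18403 in cortex. In female mice 0 of 18 tested red cell genes were called by edgeR or DESeq2 in liver, with 2 at an unadjusted p under 0.05, and 0 of 18 in muscle, with 3. In female cortex 0 of 19 were called by either tool, with 2 at an unadjusted p under 0.05. For 12 endothelial genes in female muscle 0 were called by edgeR, 1 was called lower by DESeq2 and 8 had an unadjusted p under 0.05, where all 12 log2 fold changes were below 0 (median -0.32, against -0.02 for all genes). Their sum had a mean of 352 ± 47.0 CPM under AL and 274 ± 51.7 CPM under IF (SD, n = 8 each), with overlapping ranges. In female liver and cortex 0 of the 12 were called by either tool, with 0 and 2 at an unadjusted p under 0.05. Of 11 genes of haem synthesis 0 were called by either tool in each female tissue, with 0 in liver, 1 in muscle and 1 in cortex at an unadjusted p under 0.05. Alas1, the most abundant of them in female liver, had a log2 fold change of 0.55 (SE 0.31, adjusted p = 0.850 by edgeR).

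The listed globin genes of the embryo, Hba-x, Hbb-y, Hbb-bh0, Hbb-bh1 and Hbb-bh2, were at 0 counts in all male liver libraries. Cytoglobin (Cygb), a relative of haemoglobin, had a log2 fold change of 0.80 in male liver.

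Beside Tent5c and Mrpl12, the genes most like the members by mean r over 3 tissues included Gm43305 (0.49), Cyc1 (0.49), Atp5d (0.48), Uqcrc1 (0.48), Mrps27 (0.47), Gpx1 (0.47), Mrps21 (0.47), Bpgm (0.47), Tmem37 (0.46), 2810025M15Rik (0.46), Pop5 (0.46) and Mdh2 (0.46). Cyc1, Atp5d and Uqcrc1 encode parts of the respiratory chain and ATP synthase, and Mrps27 and Mrps21 parts of the mitochondrial ribosome.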
